A study of Mus musculus with 6 samples.

Results

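The NF-kappaB system was followed through 10 genes in lung ECs of AngII-infused WT and leene-KO mice: 5 subunits of the transcription factor (Nfkb1, Nfkb2, Rel, Rela and Relb) and 5 feedback genes (Nfkbia, Nfkbiz, Tnfaip3, Bcl3 and Birc3). The genes were chosen by name, with earlier results of these data known, and all 10 were found among the 47729 annotated genes and passed the filter on low counts. PolyA-enriched RNA was sequenced in 6 libraries, 3 from WT and 3 from KO mice, all males of 14 weeks on normal chow that had received 1000 ng/kg/min of Angiotensin II (AngII) from an osmotic pump for 2 weeks. KO mice lack, in every cell, the mouse region that matches the human gene of LEENE, a long noncoding RNA of ECs. Both groups received AngII, so no library shows the level without it. ECs were enriched from digested lung with beads, through CD31 according to the labels and through CD144 according to the study's methods. The labels also speak of cells pooled from 3 mice in each group, so n below counts libraries, and p-values measure only the spread between libraries, which may be technical.

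NF-kappaB is a family of dimers built from 5 subunits that share a DNA-binding domain. Rela, Rel and Relb can activate transcription, while the products of Nfkb1 and Nfkb2 are made as precursors and trimmed to p50 and p52. In resting cells the dimers are held in the cytoplasm by IkappaB proteins, and TNF, IL-1 or microbial signals release them by having IkappaB phosphorylated and degraded. Several of the genes then switched on encode brakes of the same pathway, and in ECs the pathway is best known for inducing adhesion molecules and chemokines.

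Library totals ran from 24464324 to 35184063 counts. Mitochondrially encoded genes held 37.4% (WT replicate 1) to 54.5% (WT replicate 3) of the counts. The TMM method, used to scale the libraries, gave WT replicate 1 a factor of 1.37 and the others 0.874 to 1.04. EC markers were abundant in every library, with 12 markers summing to 1793 to 3368 CPM (counts scaled to library size with the TMM method) in WT and 2216 to 3520 CPM in KO. The libraries also held RNA of other lung cells. Alveolar type II markers (8 genes) summed to 5428, 50661 and 15635 CPM in WT replicates 1, 2 and 3 and to 39333 to 48640 CPM in KO, so WT replicate 2 resembled the KO libraries in this respect. B cell markers (10 genes) summed to 14.4 to 32.9 CPM in WT and 112 to 121 CPM in KO. For ECs, alveolar type II cells and B cells, the most abundant marker overlapped or separated by genotype as the sum did. The EC transcription factor gene Erg ran from 350.0 to 580 CPM in WT and from 387 to 555 CPM in KO. Its lowest WT value was in replicate 2, and that of the EC sum was in replicate 1. The surfactant gene Sftpc ran from 2051 to 24029 and from 19809 to 23835 CPM, and the B cell receptor gene Cd79b from 2.13 to 6.74 and from 22.8 to 25.2 CPM. Of the 12 EC markers, Kdr alone was higher in every KO library than in any WT library, where 8.59% of all genes were. It ran from 93.3 to 138 CPM in WT and from 161 to 264 CPM in KO (adjusted p of 0.313 in edgeR's quasi-likelihood test). The groups overlapped for the other EC markers. In such bulk samples, fewer cells of a type and less RNA per cell cannot be told apart. Genes of the deleted region were not analysed here, so each genotype is taken from its label.

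Because NF-kappaB acts on several of its own genes through short DNA motifs called kappaB sites, the promoters were read first. RefSeq windows of 300 bases on GRCm38.p6, from 250 bases before to 50 after each transcription start, were at hand for 7 of the 10 genes (10 windows), the exceptions being Nfkb1, Relb and Nfkbiz. The NF-kappaB consensus, searched on both strands, matched in windows of 5 genes (Nfkb2, Rel, Nfkbia, Tnfaip3 and Bcl3) and in none of Rela or Birc3. Another window of Tnfaip3, at chr10:19011914-19012213, held no match. Positions are counted from the RefSeq start. In the annotation used for counting, Tnfaip3 reaches to 19015657, past both its matches. Over all 32817 windows 8.46% held a match. That share counts single windows, while the 5 matches are counted by gene, and Nfkb2 and Tnfaip3 have several windows. The narrower core GGGANNTTCC, which is contained in the consensus, matched in windows of Nfkbia and Nfkb2 and in 1.47% of all windows. A match describes the letters only and not binding. Of the 5 genes with a match, Nfkbia, Tnfaip3, Bcl3 and Nfkb2 were lower in every KO library than in any WT library, and Rel was not. Whether a match goes with a change was not tested. Apart from further or overlapping matches of Nfkb2 and Rel, all matches are shown here. Each is printed in capitals with 8 bases on either side, 5′ to 3′ on the strand of the gene, with the position of the capitals:

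Nfkbia, minus strand, 29 to 20 bases before the start, chr12:55492667-55492676: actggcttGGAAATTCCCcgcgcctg
Tnfaip3, minus strand, 12 to 3 bases before the start, chr10:19015413-19015422: tttccatcGGAAATCCCCctgttggc
Tnfaip3, minus strand, 125 to 116 bases before the start, chr10:19015526-19015535: ctcacgcgGGGACACCCCggggcggg
Bcl3, minus strand, bases 3 to 12 after the start, chr7:19822744-19822753: ggcggcagGGGAAGTCCCgctgcccg
Nfkb2, plus strand, 39 to 30 bases before the first start, chr19:46304698-46304707: atcgtcacGGGAATTCCCcccctcgg
Nfkb2, plus strand, 225 to 216 bases before another start, chr19:46305705-46305714: gtattttcGGGACTTTCCtaagcagc
Rel, minus strand, 92 to 83 bases before the start, chr11:23771052-23771061: taagcagcGGGAAATCCCcccccctc

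The 250 bases in front of the start of Nfkbia (chr12:55492648-55492897, minus strand) are given whole, since this gene is the classical feedback target, with the match in capitals:

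Nfkbia: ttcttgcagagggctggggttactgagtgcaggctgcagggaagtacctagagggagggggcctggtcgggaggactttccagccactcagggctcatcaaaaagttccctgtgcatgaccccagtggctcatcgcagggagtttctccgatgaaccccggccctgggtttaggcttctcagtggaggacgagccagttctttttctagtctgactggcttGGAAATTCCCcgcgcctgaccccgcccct

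Levels of the 10 genes were compared with each other as CPM per kilobase of exon. Nfkbia, which encodes IkappaB-alpha, was the most abundant in each of the 6 libraries, at 76.2 ± 15.8 CPM per kb in WT and 43.1 ± 6.43 CPM per kb in KO (SD, n = 3). Rela, which encodes the activating subunit p65, came second in each library at 23.1 ± 1.70 and 22.8 ± 1.68 CPM per kb. Nfkb1 stood at 7.51 CPM per kb in WT and 7.02 in KO, a level that depends on its exon length of 12061 bases. At the low end, Rel was at 1.28 and 1.23 CPM per kb and Nfkbiz at 0.809 and 0.827 CPM per kb in WT and KO. The order of the means was the same in both groups apart from Bcl3, which stood between Nfkb1 and Nfkb2 in WT at 6.25 CPM per kb and between Birc3 and Relb in KO at 3.22 CPM per kb. Bcl3 overlapped with both neighbours in each group. Birc3 and Relb, and Relb and Tnfaip3, also overlapped in WT, as did Tnfaip3 and Rel, and Rel and Nfkbiz, in KO.

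Bcl3, Nfkbia and Tnfaip3, of the 5 feedback genes, and Nfkb2, of the 5 subunits, were lower in all KO libraries than in any WT library, by 48.5%, 43.4%, 35.0% and 17.3% of the WT level. The quasi-likelihood test of edgeR called 0 of the 10 genes at a Benjamini-Hochberg threshold of 0.05 over 14625 genes, where 0.109% of all genes were. At an unadjusted p under 0.05, Bcl3, Nfkbia and Tnfaip3 were lower, 3 of the 10, and none was higher, where 4.68% of all genes tested were lower. DESeq2 called 2 of the 10, Bcl3 and Nfkbia, both lower (0.640% of all genes in that test), and limma-voom called 0. The groups did not overlap with KO lower for 4 of the 10, against 9.20% of all genes. The smallest p that an exact permutation test can give with 3 libraries against 3 is 0.1.

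Values per library follow in the order of replicates 1, 2 and 3, and gene positions are those of the count tables on GRCm38. Rela (chr19:5637483-5648130) measured 67.4, 58.1 and 63.1 CPM in the WT libraries and 63.0, 56.9 and 65.9 CPM in the KO libraries. The groups overlapped almost fully, and the log2 fold change of -0.021 had a standard error (SE) of 0.13 and an adjusted p of 0.961 in the edgeR fit. The 95% interval of the difference ran from 0.804-fold to 1.21-fold. Nfkb1 (chr3:135584655-135691547), the source of p50, measured 105, 79.5 and 87.5 CPM in WT and 79.8, 84.9 and 89.4 in KO. WT replicate 1 alone stood above the others, and the log2 fold change was -0.097, with an SE of 0.15 and an edgeR adjusted p of 0.821. Rel (chr11:23736847-23770970), which encodes the c-Rel subunit best known from lymphocytes, measured 9.64, 9.63 and 9.32 CPM in WT and 10.9, 7.03 and 9.59 in KO. The WT libraries were grouped more tightly than sampling of their 199 to 394 counts would give on average. Of the KO libraries 1 lay above, 1 below and 1 among them. The log2 fold change was -0.058, with an SE of 0.19 and an edgeR adjusted p of 0.925. All 10 B cell markers were higher in every KO library than in any WT library, where 8.59% of all genes were. The part of B cells in the level of Rel was not tested.

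The 2 subunits of the slower, non-canonical branch are Relb and Nfkb2, whose p100 product is trimmed to p52. Relb (chr7:19606217-19629438) measured 12.7, 9.95 and 11.5 CPM in WT and 10.9, 10.9 and 11.7 in KO, with full overlap and a log2 fold change of -0.025 (SE 0.15, edgeR adjusted p of 0.960). Nfkb2 (chr19:46304737-46312090) measured 21.2, 18.1 and 16.3 CPM in WT and 15.9, 14.1 and 16.1 in KO. Every KO library was below every WT library, but by a margin of only 0.233 CPM between the nearest pair. Its log2 fold change was -0.27, with an SE of 0.15 and an edgeR adjusted p of 0.547, with a 95% interval from 0.654-fold to 1.05-fold. The separation of Nfkb2 was lost when libraries were scaled by total counts, where KO replicate 3 (16.7 CPM) lay above WT replicate 3 (14.3 CPM).

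**Figure D1:**
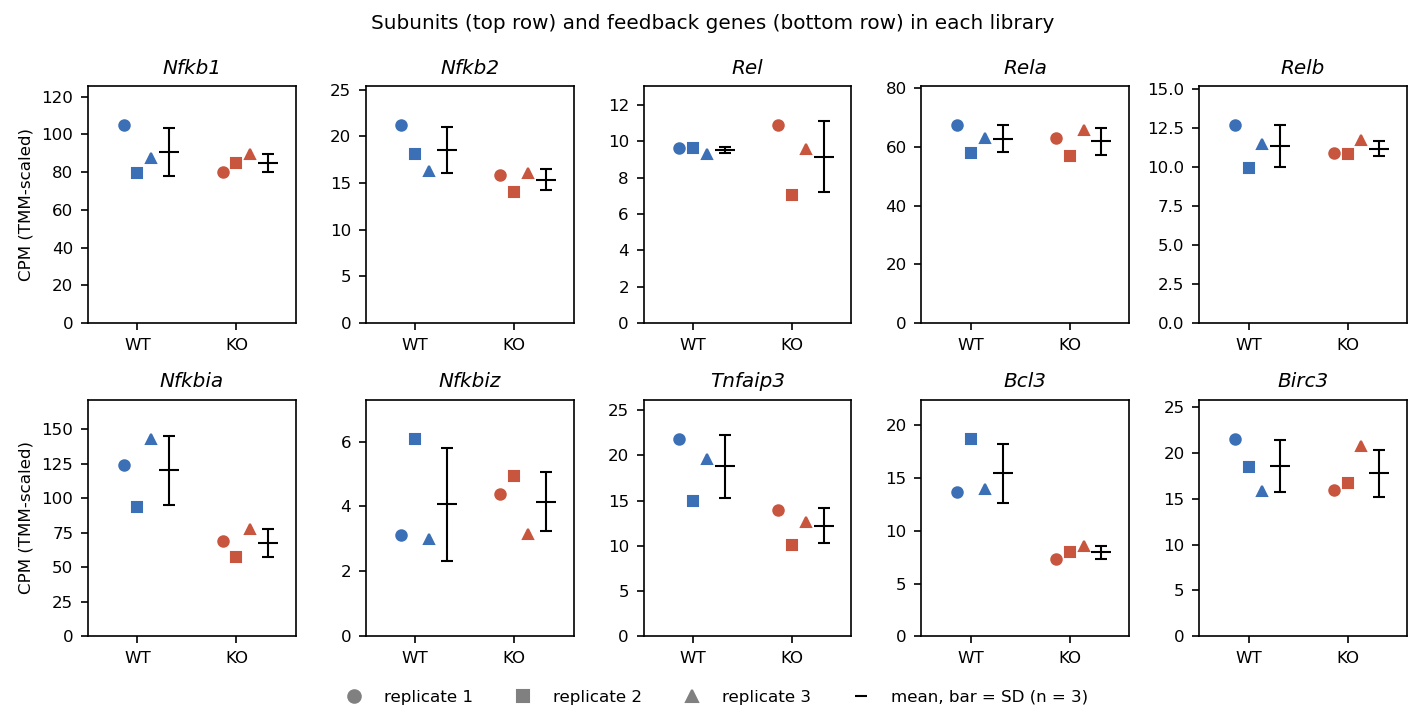
TMM-scaled CPM of the 5 subunits (top row) and the 5 feedback genes (bottom row) in each of the 6 libraries, with the group mean and SD (n = 3) beside the points. Nfkbia, Tnfaip3, Bcl3 and, by 0.233 CPM, Nfkb2 show all KO points below all WT points, while Rela, Relb, Rel, Nfkb1, Nfkbiz and Birc3 overlap.

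Bcl3 (chr7:19808462-19822770) encodes an IkappaB-like protein that works in the nucleus as a cofactor of p50 and p52 dimers. It measured 13.7, 18.7 and 14.0 CPM in the WT libraries and 7.31, 8.02 and 8.55 CPM in the KO libraries. The KO libraries were close together, and the nearest WT library stood 5.15 CPM above them. The log2 fold change was -0.96, with an SE of 0.17 and an edgeR adjusted p of 0.140, that is 48.5% lower in KO, with a 95% interval from 0.390-fold to 0.679-fold. It ranked 62nd by p among the 14625 genes. DESeq2 gave -0.99 (adjusted p = 0.00195).

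Nfkbia (chr12:55489411-55492647) encodes the inhibitor that captures p65 and p50 dimers, and its transcription by NF-kappaB is the textbook negative feedback loop. Its values were 124, 93.5 and 143 CPM in WT and 68.8, 57.5 and 77.7 CPM in KO, from 1562 to 5062 counts per library. All KO libraries were below WT replicate 2, the lowest WT library, by at least 15.8 CPM. The log2 fold change was -0.82, with an SE of 0.20 and an edgeR adjusted p of 0.283, or 43.4% lower in KO, with a 95% interval from 0.412-fold to 0.777-fold. DESeq2 gave -0.85 (adjusted p = 0.0230).

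Tnfaip3 (chr10:19000910-19015657) encodes A20, a ubiquitin-editing enzyme that shuts off signalling from TNF and Toll-like receptors upstream of the IkappaB kinase. It measured 21.8, 15.0 and 19.6 CPM in WT and 14.0, 10.1 and 12.6 in KO. The groups did not overlap, although WT replicate 2 was only 1.04 CPM above KO replicate 1. The log2 fold change was -0.62, with an SE of 0.19 and an edgeR adjusted p of 0.367, or 35.0% lower in KO, and DESeq2 did not call it (adjusted p = 0.218).

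Birc3 and Nfkbiz, also known as NF-kappaB targets, did not follow this pattern. Birc3 (chr9:7848699-7873186) encodes cIAP2, a ubiquitin ligase of the TNF receptor complex, and measured 21.5, 18.4 and 15.8 CPM in WT and 16.0, 16.7 and 20.7 in KO. Its log2 fold change was -0.066, with an SE of 0.17 and an edgeR adjusted p of 0.902, and the 95% interval ran from 0.729-fold to 1.25-fold. Nfkbiz (chr16:55811375-55838899) encodes IkappaB-zeta, a nuclear cofactor, and was the least counted of the 10 genes with 64 to 207 counts per library. It measured 3.11, 6.08 and 3.00 CPM in WT and 4.38, 4.93 and 3.14 in KO, with WT replicate 2 highest. The log2 fold change of 0.025 (SE 0.33, edgeR adjusted p of 0.984) has a wide 95% interval, from 0.597-fold to 1.74-fold, and turned negative (-0.13) with total-count scaling, so differences within that interval were not detectable at this depth and spread. Whether the 3 lower feedback genes differ in their change from these 2 genes was not tested.

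**Figure D2:**
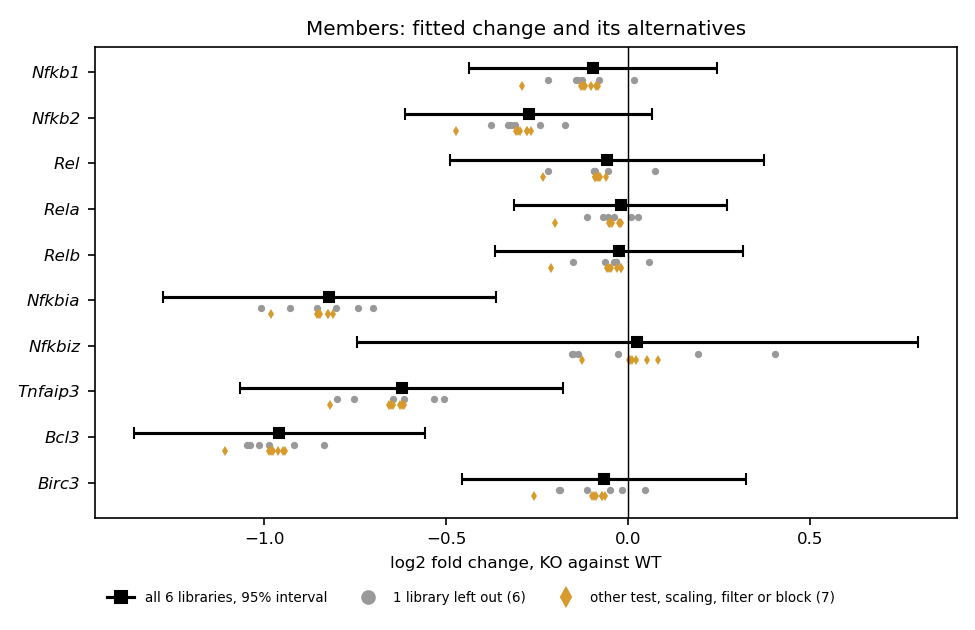
Log2 fold change of KO against WT for the 10 genes, with the 95% interval of edgeR's quasi-likelihood fit (squares), the 6 fits that leave out 1 library (circles) and the 7 other settings (diamonds). Bcl3, Nfkbia and Tnfaip3 stay between -1.11 and -0.50 in every fit, and the points of Nfkbiz lie on both sides of 0, with total-count scaling at -0.13.

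Without WT replicate 2, the quasi-likelihood test called Nfkbia (log2 fold change -1.01, adjusted p = 0.0245), Bcl3 (-0.83, adjusted p = 0.0321) and Tnfaip3 (-0.80, adjusted p = 0.0414), and 791 genes in all in place of 16. Of the 14950 genes tested in that fit, 660 were called higher and 131 lower. With any 1 KO library left out it called none of the 10, and adjusted p-values of the 3 genes lay between 0.455 and 0.735. WT replicate 2 was the WT library with the highest alveolar type II signal, and it had the lowest WT value of Nfkbia and Tnfaip3 and the highest of Bcl3. The KO mean was 72.7% of WT replicate 2 for Nfkbia, 81.5% for Tnfaip3 and 42.6% for Bcl3. It was 54.9% and 47.6% of WT replicates 1 and 3 for Nfkbia, 56.0% and 62.3% for Tnfaip3, and 58.1% and 56.9% for Bcl3. The part of alveolar type II RNA in these differences was not tested.

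Ratios of members within a library do not depend on how libraries are scaled. They were chosen after the values had been seen, and they restate the separation of the genes in their numerators. Per kilobase, each library held 3.17, 2.77 and 3.90 times as much Nfkbia as Rela mRNA in WT and 1.88, 1.74 and 2.03 times as much in KO. These ratios did not overlap, and their means were 3.28 ± 0.575 and 1.88 ± 0.146 (SD, n = 3). Bcl3 relative to Rela was 0.223, 0.353 and 0.244 in WT and 0.127, 0.155 and 0.142 in KO, again without overlap. Tnfaip3 relative to Rela was 0.122, 0.0970 and 0.117 in WT and 0.0833, 0.0668 and 0.0718 in KO. The ratio of Relb to Rela lay between 0.120 and 0.133 in all 6 libraries.

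**Figure D3:**
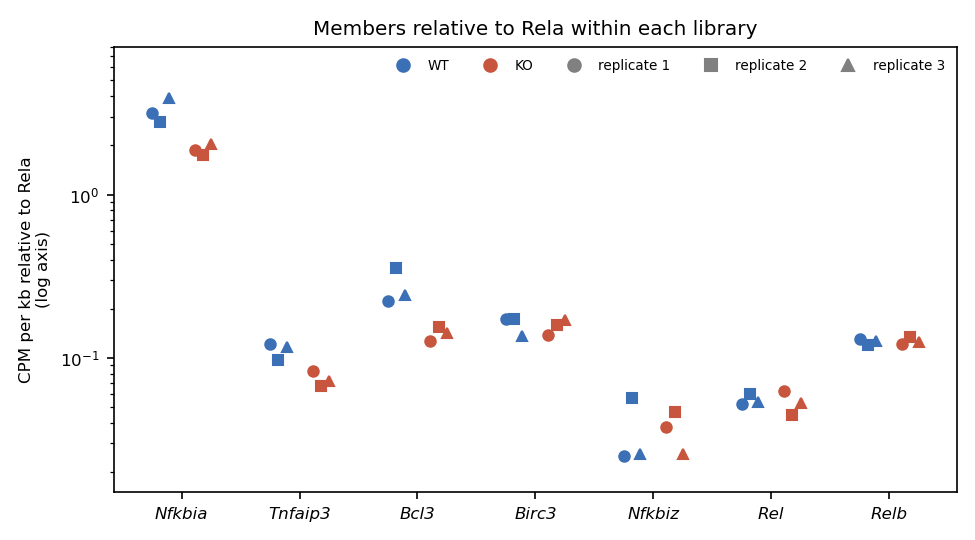
CPM per kilobase of 7 genes divided by that of Rela in the same library, on a log axis, for WT (blue) and KO (red) libraries. Nfkbia, Tnfaip3 and Bcl3 are separated by genotype (Nfkbia from 2.77 to 3.90 in WT and from 1.74 to 2.03 in KO), and Birc3, Nfkbiz, Rel and Relb are not.

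Nfkbia and Tnfaip3 are also known as rapid-response genes, so 12 immediate early genes were set beside them. Their summed level was 659 to 715 CPM in WT and 435 to 565 CPM in KO. In 7 of the 12, every KO library was below every WT library, where 9.20% of all genes were separated in this way, and none was separated the other way. The groups overlapped for Fos, Jun, Junb, Ier2 and Egr1, and Egr1 had a log2 fold change of 0.20. The list was chosen with earlier results of these data known. At an unadjusted p under 0.05, 7 were lower (4.68% of all genes), DESeq2 called 3 lower (0.640% of all genes), and the quasi-likelihood test called none after adjustment. The one with the lowest p was Atf3, a stress-induced transcription factor, with 11.5 to 14.6 CPM in WT and 2.32 to 4.90 in KO (log2 fold change -1.90, adjusted p of 0.0721), named after its values were seen. Whether the feedback genes and the early genes share a source was not tested. Markers of other leukocytes had overlapping sums in WT and KO, apart from T cells, where KO was higher. T cell markers (10 genes) summed to 3.99 to 6.96 CPM in WT and 8.68 to 13.1 CPM in KO, with 3 of them under 1 CPM in all libraries. Those of macrophages (9 measured genes) summed to 107 to 203 and 154 to 227 CPM, of neutrophils (8 genes, Ly6g at 0 in 2 libraries) to 28.2 to 77.5 and 41.9 to 46.3 CPM, and of dendritic cells (10 genes) to 58.6 to 69.7 and 45.4 to 66.8 CPM in WT and KO. The part of these cells in the levels of the 10 genes was not tested.

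The other genes of the pathway were taken from 7 lists of 93 genes, of which 88 were tested. None of the 88 was called by edgeR after adjustment (0 genes), and at an unadjusted p under 0.05 there were 7 higher and 5 lower in KO, against 5.62% and 4.68% of all genes. DESeq2 called 1 higher (Ltb, against 0.569% of all genes) and 1 lower (Bcl2l1), and limma-voom none. The groups did not overlap in 12 genes with KO higher and in 8 with KO lower, where 8.59% and 9.20% of all genes did so. The median log2 fold change over the 88 genes was -0.027, over the 5 subunits -0.058, over the 5 feedback genes -0.62, over the 10 genes -0.081 and over all genes tested 0.033. With 1 library left out, the median of the feedback genes lay between -0.80 (without WT replicate 2) and -0.50 (without WT replicate 1), and that of the subunits between -0.15 (without WT replicate 2) and 0.017 (without WT replicate 1). The median of the receptors, 0.40 with all libraries, lay between 0.21 without WT replicate 1 and 0.57 without WT replicate 2. That of the ligands, 0.28 with all libraries, lay between 0.076 and 0.50 without the same libraries, and that of the other IkappaB proteins, -0.13 with all libraries, between -0.22 without WT replicate 1 and -0.034 without WT replicate 3.

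Among the other inhibitors, Nfkbie, which encodes IkappaB-epsilon, measured 3.56 ± 0.838 CPM in WT and 4.90 ± 0.0787 in KO (log2 fold change 0.45, adjusted p = 0.516). The direction was thus opposite to that of Nfkbia, and the groups did not overlap. Nfkbib, for IkappaB-beta, had a log2 fold change of -0.13 and the scarce Nfkbid, for another nuclear cofactor, -0.44 (adjusted p = 0.759 and 0.818). Of 14 further brakes, 1 had an unadjusted p under 0.05 and was higher, where 5.62% of all genes were. This was the linear-ubiquitin hydrolase Otulin, at 19.9 ± 2.00 CPM in WT and 25.0 ± 1.16 in KO (log2 fold change 0.33, adjusted p = 0.459). The deubiquitinase gene Otud7b (-0.26) and the ubiquitin ligase gene Pdlim2 (0.15) followed by p, with overlapping groups.

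Of the 11 genes of IkappaB kinases and the kinases upstream, Chuk and Ikbkb, which encode the catalytic IkappaB kinases, and Ikbkg, which encodes their regulatory partner NEMO, had log2 fold changes of -0.0083, -0.14 and -0.022. They were named after their values were seen. Tab3, an adaptor of the kinase TAK1, measured 10.4 ± 1.10 CPM in WT and 13.9 ± 0.494 in KO (log2 fold change 0.42, adjusted p = 0.398), and Ikbke (0.68) and Tab1 (0.24) came next. Of 19 adaptors and ubiquitin ligases, 2 were lower at an unadjusted p under 0.05, where 4.68% of all genes were. Myd88, the adaptor of Toll-like and IL-1 receptors, measured 23.0 ± 3.05 CPM in WT and 18.4 ± 0.159 in KO, and Bcl10, of the complex that signals from antigen receptors, was at 23.3 ± 2.93 and 18.4 ± 1.21 CPM (log2 fold changes -0.33 and -0.34, adjusted p = 0.477 and 0.476). Malt1, the partner of Bcl10, measured 7.08 ± 0.568 CPM in WT and 9.03 ± 1.03 in KO, with KO higher in every library (log2 fold change 0.35, adjusted p = 0.502).

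Ltb, which encodes lymphotoxin-beta, a ligand made chiefly by lymphocytes, measured 2.11 ± 0.698 CPM in WT and 6.59 ± 0.354 in KO (log2 fold change 1.66, adjusted p = 0.107 from the quasi-likelihood test and 8.29e-05 from DESeq2). Cd40, a receptor of B cells, myeloid cells and ECs, was at 2.83 ± 0.479 and 4.76 ± 0.434 CPM (log2 fold change 0.75, adjusted p = 0.343). For both genes the KO libraries were above all WT libraries, as were those of the 10 B cell markers (8.59% of all genes). The part of B cells in this was not tested. Il1b, for the cytokine IL-1beta, measured 5.34 ± 4.44 CPM in WT and 2.05 ± 0.544 in KO with overlapping groups (log2 fold change -1.39, adjusted p = 0.468), and Tnf was below 1 CPM on average in both groups. The receptor genes next by p were Tnfrsf12a, the receptor of TWEAK (-0.85), and Il1rap, the shared chain of the IL-1 receptors (0.69), both overlapping.

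Of 26 target genes, 24 were tested. At an unadjusted p under 0.05, 3 were higher and 2 lower, against 5.62% and 4.68% of all genes. Bcl2l1, which encodes the survival factor BCL-XL, measured 88.8 ± 7.84 CPM in WT and 61.9 ± 1.85 in KO (log2 fold change -0.52, adjusted p = 0.283 from the quasi-likelihood test and 0.0413 from DESeq2). Sele, the adhesion molecule E-selectin of activated ECs, was scarce, with 1.86 ± 0.340 CPM in WT and 0.780 ± 0.356 in KO (log2 fold change -1.25, adjusted p = 0.394). On the other side, the macrophage growth factor Csf1 was at 17.1 ± 2.49 and 24.3 ± 2.09 CPM (0.51, adjusted p = 0.357), the chemokine Cx3cl1 at 52.4 ± 19.8 and 83.7 ± 5.71 CPM (0.68, adjusted p = 0.468) and the protease Mmp9 at 8.01 ± 4.21 and 16.9 ± 3.09 CPM (1.08, adjusted p = 0.435) in WT and KO. Icam1 and Vcam1, the adhesion molecules most often read as NF-kappaB output in ECs, had log2 fold changes of 0.22 (SE 0.51) and -0.17 (SE 0.27) with overlapping groups, and were named after their values were seen. The median over the 24 targets was -0.10, but it was 0.22 without WT replicate 2 and -0.22 without WT replicate 1.

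**Figure D4:**
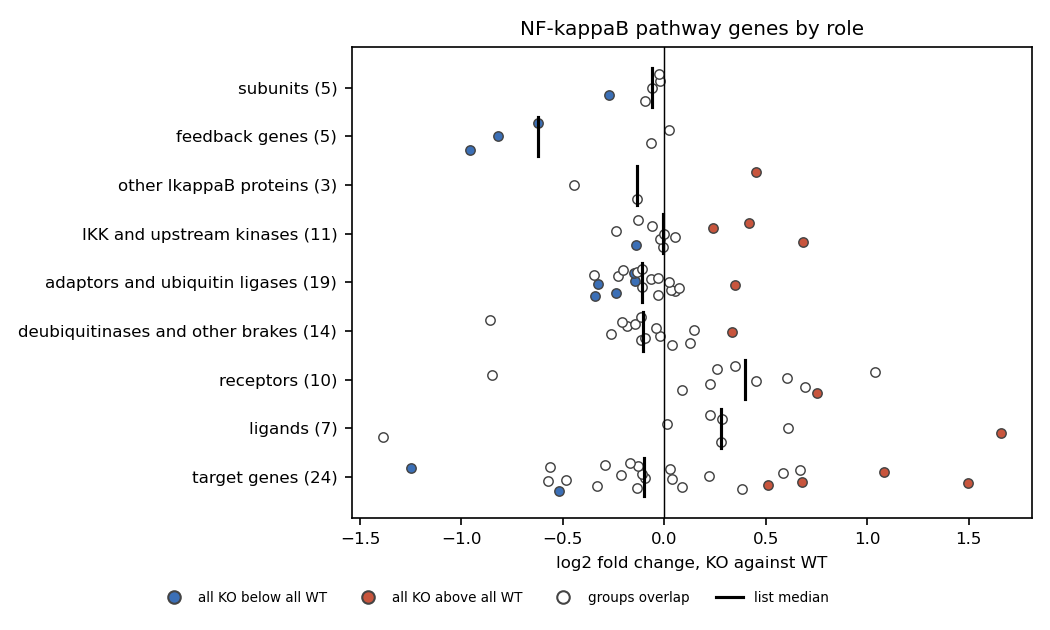
Log2 fold change of KO against WT for each tested gene of the pathway, by role, with the number of genes in parentheses; a filled point is a gene whose groups do not overlap and a bar is the list's median. The feedback genes have a median of -0.62, and the medians of the other lists lie between -0.13 (other IkappaB proteins) and 0.40 (receptors), values that shift when 1 library is left out.

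The genes whose log2 CPM followed that of Nfkbia most closely over the 6 libraries, among 3236 genes with a mean log2 CPM above 5, were Lasp1, Rhoc and Pitpna, with Pearson correlations of 0.994, 0.993 and 0.992. The libraries differ in depth and cell make-up, which these genes share. Rhoc, a small GTPase, measured 136, 114 and 159 CPM in WT and 95.1, 86.6 and 101 in KO (log2 fold change -0.53, adjusted p = 0.371). For Rel they were Rnf11, Frmd6 and Lrrc58 (0.972, 0.964 and 0.950), with log2 fold changes of -0.043, -0.018 and -0.013.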

How the data were processed

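The authors deposited whole-number read counts per gene, 1 table per library, without normalization. The file headers name featureCounts 2.0.0 with the Ensembl release 84 annotation of GRCm38, counting exons of uniquely aligned reads on the reverse strand, and the submitters' processing notes name STAR 2.5.4b and mm10. Counts of 6 libraries were tested in R 4.3.3 with edgeR 4.0.16 (filterByExpr, TMM, glmQLFit and glmQLFTest at defaults, genotype as the only term), and p-values were adjusted over 14625 genes by the Benjamini-Hochberg method at 0.05. SDs and CPM use TMM-scaled library sizes, standard errors are the log2 fold change over the root of F, log2 CPM has a prior count of 2, and CPM per kb uses the exon length of the count tables. Symbols came from GENCODE names of GRCm38 (47224 of 47729 genes). The tests were tried on simulated data first. Alternatives were DESeq2 1.42.0, voom of limma 3.58.1, RLE, total-count scaling, leaving out mitochondrial genes, no filter, the replicate block and leaving out each library. List medians were recomputed under the same alternatives. The genes and lists were chosen with earlier results of these data known. Named were all 10 genes, the genes of each pathway list with the lowest p (3, or 5 of the targets) the most abundant gene of marker lists that stand beside a result and, for Nfkbia and Rel, the 3 most alike genes. Promoter windows are those of RefSeq on GRCm38.p6. Every pair of libraries differed by more than sampling noise.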

Additional observations from a re-analysis of the deposited data

How the results depend on the processing

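Over 13 alternatives, the log2 fold changes of the 10 genes kept their direction and their side of the threshold in 113 of 130 fits. No alternative reversed Nfkb2, Nfkbia, Tnfaip3 or Bcl3. Nfkbiz turned negative with total-count scaling (-0.13). With each library left out in turn the values ran from -0.22 to 0.017 for Nfkb1, -0.22 to 0.074 for Rel, -0.11 to 0.027 for Rela, -0.15 to 0.057 for Relb, -0.15 to 0.40 for Nfkbiz and -0.19 to 0.047 for Birc3, with changes of sign, and from -1.01 to -0.70 for Nfkbia, -0.80 to -0.50 for Tnfaip3 and -1.05 to -0.83 for Bcl3, without. The main test called 16 genes (5 higher, 11 lower), DESeq2 187, limma-voom 26, RLE scaling 26, total-count scaling 123 (61 higher, 62 lower) and the fit without a filter 152. Leaving out 1 library gave 0 to 791 genes, with 0 whenever a KO library was left out, 0 to 3 of the 10 genes and 0 to 5 of the other pathway genes, in each case the highest without WT replicate 2. Of the 10 genes, DESeq2 called 2 and the fit without a filter 1 (Bcl3); of the other pathway genes, DESeq2 called 2, total-count scaling 2 and the fit without a filter 1. With the replicate block 0 genes were called. Deviations of same-numbered libraries correlated at -0.0814, 0.219 and 0.0111. These values have no reference to be set against, so they do not settle whether the numbers pair the libraries. Total-count scaling shifted the median log2 fold change of all genes by -0.16 and that of the 10 genes by -0.18. With 3 libraries a group and 64 to 207 counts, Nfkbiz has the least precise value. Of the list medians, that of the targets changed sign without WT replicate 2 (0.22) and those of the subunits (0.017) and of the IkappaB kinases (0.033) without WT replicate 1. The cause of these shifts was not tested.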

Other observations

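Within the 10 genes, Nfkbia and Tnfaip3 moved together most closely over the 6 libraries (Pearson r = 0.937 of log2 CPM, the highest of 45 pairs, given as a description), followed by Nfkb1 and Relb (0.912) and by Rela and Relb (0.849). Bcl3, the third gene that was lower in KO, followed them less closely, at 0.740 with Nfkbia and 0.64 with Tnfaip3. WT replicate 2 held the highest Bcl3 and the lowest WT values of the others. Nfkbiz ran the opposite way to Relb (-0.894) and to Rela (-0.849). Its 3 highest values were in WT replicate 2 and KO replicates 1 and 2, at 6.08, 4.38 and 4.93 CPM, and all of these points share library depth and cell make-up.

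The spread within a group also differed between genes. Rel varied by 1.94% of its mean in WT and by 21.4% in KO, and Bcl3 by 18.1% in WT and 7.87% in KO (SD over mean, n = 3). Rel had 199 to 394 counts in the WT libraries, and sampling of so few reads would on average give a spread above 1.94%. These values were not tested.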
